A study of Homo sapiens with 6 samples.

Results

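Chromosome 19 carries the largest group of zinc finger genes in the human genome, and 134 of them were measured here in HCT116 cells, an epithelial colorectal carcinoma line. Members were the chromosome 19 transcript clusters with a single gene symbol made of ZNF or ZFP and a number. The array held 255 such genes, and 134 of them reached a log2 signal of 5 on at least 2 of 6 arrays, out of 24721 transcript clusters that did so among 67528. The 121 genes below that line are not described further. Of the 134 genes, 122 lay above the line on all 6 arrays and 12 on some of them. The second-highest array stood at 5.03 for ZNF628 and 5.04 for ZNF30, just inside the line, and at 4.99 for both ZFP30 and ZNF253, just outside it. By the reference gene table, 130 of the 134 are protein coding, 2 are antisense long noncoding RNAs (ZNF561-AS1 and ZNF667-AS1) and 2 are transcribed pseudogenes (ZNF702P and ZNF833P).

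The cells had received a control siRNA, called si(-), or 1 of 2 siRNAs, siH19-1 and siH19-2, against H19, a long noncoding RNA of an imprinted locus. Each siRNA was given at 50 nM with a lipid reagent for 48 h, and each group holds 2 arrays labelled as biological replicates. No genetic change or second agent is given for any group, and every result comes from 1 cell line. Signals are log2 values of whole-transcript arrays, so that a difference of 1 is a doubling.

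The H19 transcript cluster read 4.82 and 5.02 on the control arrays, 4.90 and 4.99 with siH19-1, and 4.95 and 5.02 with siH19-2. The 3 groups overlapped. The row, which is also annotated to MIR675, lies at the filter line of 5 in every group, so these arrays give no check of the knockdown. The 6 epithelial markers had means over all 6 arrays of 8.32 to 13.8. Of the 14 measured markers of other cell types, 13 had such means below 5, the exception being SYT1 at 9.78. All 6 epithelial markers had at least 1 group apart from the others, and the widest shift was in E-cadherin (CDH1), which read 6.62 and 7 in control, 8.25 and 8.24 with siH19-1, and 9.92 and 9.87 with siH19-2. On the linear scale the 6 epithelial markers summed to 19027 to 23597 in control, 26965 to 30308 with siH19-1 and 26419 to 27700 with siH19-2. The other list summed to 1130 to 1345 in control, 996 to 1018 with siH19-1 and 938 to 1074 with siH19-2, most of it SYT1, which was highest on the control arrays. Without SYT1 it summed to 184 to 188, 197 to 203 and 198 to 201. The part of these shifts in the results that follow was not tested.

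Most zinc finger genes of this chromosome encode C2H2 proteins, in which an array of fingers reads a DNA sequence and an amino-terminal KRAB domain recruits the corepressor TRIM28 (KAP1). TRIM28 in turn brings the histone methyltransferase SETDB1, so that the bound DNA is packed into silent chromatin. Many of these proteins bind retrotransposons, and the genes stand in tandem clusters that arose by local duplication. ZFP36 fits the naming rule but not this description: it encodes tristetraprolin, a CCCH finger protein that binds AU-rich elements of messenger RNAs and hastens their decay.

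Among neighbourhoods with at least 8 measured genes, promoters shared most sequence in the one where most falls with siH19-1 were found. A neighbourhood was a run of chromosome 19 ZNF or ZFP genes with at most 5 other protein-coding genes between neighbours. The run from ZNF101 to ZNF254, on the short arm toward the centromere, holds 39 such genes, 19 of them measured. RefSeq promoters of 300 bases were used (250 before and 50 after the annotated start, build GRCh38.p14). They were matched by gene identifier, or else by symbol, for 115 of the 134 genes, 16 of them in this run. The stretch of 100 bases before the start is printed for 3 genes of the run that fell with siH19-1 and for ZNF146, which lies elsewhere and moved in opposite directions with the siRNAs. Capitals mark matches, on either strand, to the CCAAT box. They also mark the GC box, spelled GGGCGG. The third motif marked is the core of ETS factor sites, CCGGAAG. In the first 3 sequences the GC box runs directly into the ETS core on its other strand, so that both are joined in 1 run of capitals. Not all genes of the run that fell have this join. Of those with a promoter that are not printed, ZNF85 has it, and ZNF100 has CCAAT and the ETS core. ZNF675 and ZNF714 have CCAAT alone in this stretch.

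ZNF430, chr19:21020557-21020656, plus strand: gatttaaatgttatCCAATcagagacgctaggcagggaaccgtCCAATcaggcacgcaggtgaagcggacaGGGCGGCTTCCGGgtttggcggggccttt
ZNF91, chr19:23395472-23395571, minus strand: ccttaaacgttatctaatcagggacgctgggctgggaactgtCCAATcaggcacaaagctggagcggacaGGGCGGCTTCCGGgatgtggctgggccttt
ZNF724, chr19:23250395-23250494, minus strand: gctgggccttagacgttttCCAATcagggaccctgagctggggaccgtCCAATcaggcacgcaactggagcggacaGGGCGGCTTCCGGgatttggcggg
ZNF146, chr19:36215006-36215105, plus strand: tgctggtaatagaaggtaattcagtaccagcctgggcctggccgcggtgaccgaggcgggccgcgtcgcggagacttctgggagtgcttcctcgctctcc

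Over the 300-base windows, the ZNF430 and ZNF91 promoters were 80.7% identical, ZNF724 and ZNF91 80% and ZNF430 and ZNF724 78.3%, whereas ZNF146 and ZNF91 stood at 53%. The median identity over the 120 pairs within the run was 73.8%, against 53% over the 5925 pairs of genes from different neighbourhoods. Within the other neighbourhoods of at least 8 measured genes the medians ran from 53.3% to 57%, little above the pairs from different neighbourhoods. CCAAT, read by the factor NF-Y, was present in 16 of the 16 promoters of the run, in 57.4% of the 115 promoters of the family and in 34.6% of all 35116 promoters in the table. The ETS core was in 12 of the 16 (75%), in 46.1% of the family and in 10.3% of all promoters. The GC box was in 11 of the 16 (68.8%), in 67% of the family and in 45% of all promoters. TATAAA was in 3 of the 16 (18.8%), in 3.48% of the family and in 11.5% of all promoters. The NRF1 core and AAGATGGCG (the YY1 core) were each in 0 of the 16 windows of the run, and in 1.74% and 5.22% of the family against 1.24% and 1.75% of all promoters. These matches describe letters in a window and say nothing of binding.

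Across the 134 genes, signals were lowest with siH19-1 and highest with siH19-2, except that scaling to spike-in probes put siH19-2 under control. The median deviation of the genes from their own 6-array means was 0.06 and -0.04 on the control arrays, -0.16 and -0.17 on the siH19-1 arrays, and 0.14 and 0.12 on the siH19-2 arrays. The 3 pairs of replicate values did not overlap, and the pooled SD of these medians within groups was 0.04. Over all 24721 tested clusters the same medians lay between -0.05 and 0.05, with the groups overlapping. By group mean, siH19-1 was the lowest of the 3 groups for 97 of the 134 genes and siH19-2 the highest for 81, with control the highest for 48. These counts were not made over all tested clusters. In these bulk arrays, fewer cells that use a gene and less RNA per cell cannot be told apart.

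**Figure D1:**
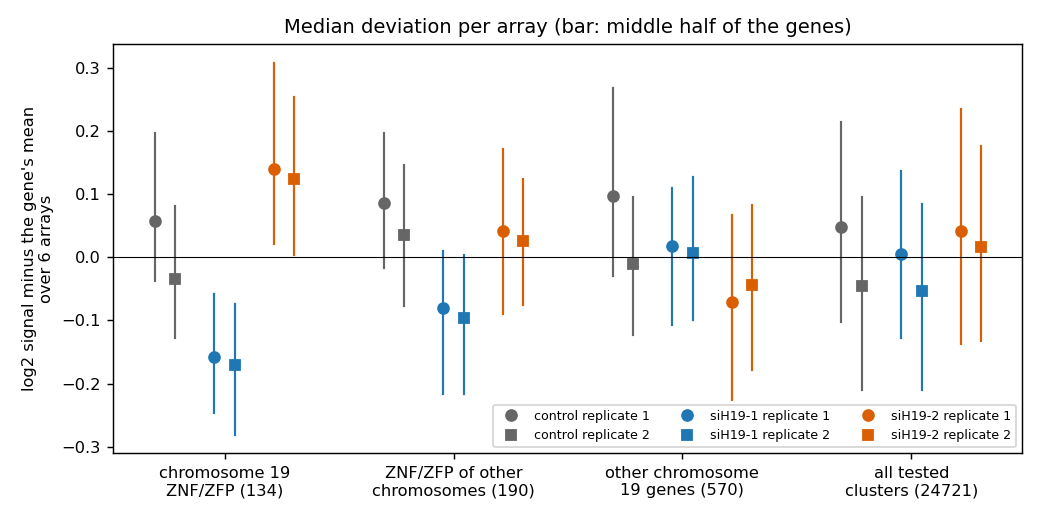
Deviation of each gene's log2 signal from its own mean over 6 arrays, by array, for the 134 chromosome 19 zinc finger genes beside the comparison sets and all tested clusters. The 2 siH19-1 arrays lie lowest for the zinc finger genes (medians -0.16 and -0.17) and the 2 siH19-2 arrays highest (0.14 and 0.12), an order that turns between siH19-2 and control under spike-in scaling.

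With siH19-1 against the control siRNA, 10 of the 134 zinc finger genes fell and none rose (limma, Benjamini-Hochberg adjusted p under 0.05 over all 24721 tested clusters), where 6.22% of all tested clusters were called (2.65% higher, 3.56% lower). The 10 are 7.46% of the genes, so the share called lay near the background, while the calls ran in 1 direction only. At an unadjusted p under 0.05 (limma), 38 genes were lower and 1 was higher, where 3200 of all 24721 tested clusters were lower and 2325 higher. The median log2 fold change was -0.15, against -0.02 over all tested clusters, and 106 genes had negative, 25 positive and 3 zero differences. Positive differences made up 18.7% of the genes, against 46% of all tested clusters. Calls in the family fell away when 1 array was left out, and those over all tested clusters fell as well. Without siH19-1 replicate 1 or replicate 2 the family's median was -0.15 and -0.165, against -0.055 and 0.015 over all clusters. Without control replicate 1 or replicate 2 it was -0.115 and -0.205, against 0.03 and -0.075.

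Of the 10 falls, 8 lay in the ZNF101 to ZNF254 run, which holds 19 of the 134 genes. All 19 had negative differences, with a median of -0.60, against a median of -0.13 and 2 falls among the other 115 genes. In the other neighbourhoods with at least 8 measured genes, medians ran from -0.33 (ZNF317 to ZNF846, 8 genes) to -0.09 (ZNF264 to ZNF446, 21 genes), with 0 or 1 fall each. The 19 differences stayed negative when any 1 array was left out, with medians of -0.74 to -0.58. Fewer of them then passed, and fewer of all tested clusters passed too. The 1 other tested gene between the members of the run, RPSA2, differed by -0.10 (adjusted p = 0.671, limma). Fingers of these duplicated genes are much alike, and whether probes of 1 gene also read transcripts of its neighbours was not tested, so the 19 values may not be separate measurements.

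**Figure D2:**
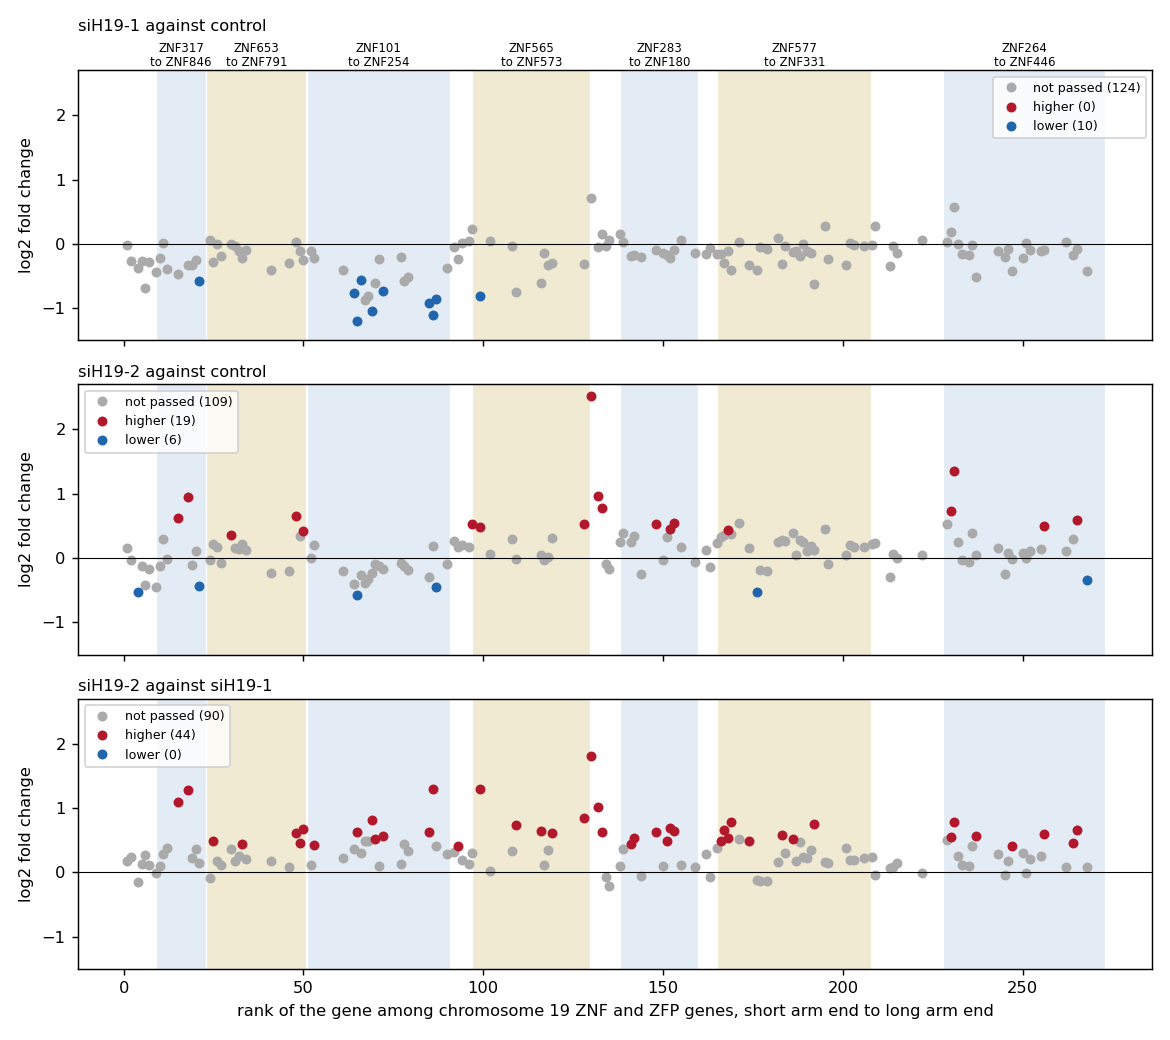
Log2 fold change of the 134 zinc finger genes in their order along chromosome 19 for each comparison. Colour marks genes called higher, called lower or not past adjusted p under 0.05 (limma). With siH19-1 against control the ZNF101 to ZNF254 run lies below the rest, with a median of -0.60 against -0.13.

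ZNF430 changed most with siH19-1. It read 8.74 and 8.40 on the control arrays, 7.34 and 7.41 with siH19-1, and 8.04 and 7.96 with siH19-2. The 3 groups did not overlap, and the siH19-2 arrays lay between the others. The level was 2.29-fold lower with siH19-1 (log2 fold change -1.20, SE 0.14, adjusted p = 0.0137, limma).

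ZNF91, a repressor known for restraining SVA retrotransposons, read 10.09 and 9.88 in control, 8.89 and 8.87 with siH19-1, and 10.34 and 10.02 with siH19-2. Only the siH19-1 arrays stood apart, about 1 log2 unit under all others. The change was -1.11 with siH19-1 (SE 0.15, adjusted p = 0.0188, limma) and 0.20 with siH19-2 (adjusted p = 0.411). Between the siRNAs ZNF91 was 2.46-fold higher with siH19-2 (adjusted p = 0.00673).

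The other falls of the run were smaller. ZNF738 read 8.33 and 7.90 in control, 7.13 and 7.01 with siH19-1, and 7.80 and 7.96 with siH19-2, a change of -1.05 with siH19-1 (adjusted p = 0.0281, limma). ZNF724 read 8.16 and 8.09, then 7.19 and 7.22, then 7.93 and 7.73, a change of -0.92 (adjusted p = 0.0146). In both genes the siH19-1 arrays were under all others. ZNF675, also called TIZ and known as an inhibitor of TRAF6 signalling, read 7.18 and 7.26 in control, 6.31 and 6.41 with siH19-1, and 6.87 and 6.68 with siH19-2. Its groups did not overlap, and it fell by 0.86 on the log2 scale with siH19-1 (adjusted p = 0.0165). ZNF85 read 7.27 and 7.05, then 6.37 and 6.43, then 6.76 and 6.76, a change of -0.76 (adjusted p = 0.0222). ZNF100 read 8.27 and 8.25, then 7.45 and 7.62, then 8.13 and 8.06, a change of -0.73 (adjusted p = 0.0230). ZNF714, named after its values were seen because it completes the 8, changed by -0.57 (adjusted p = 0.0421).

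The 11 genes of the run that did not pass had values in the same direction. ZNF431 was at -0.88 (adjusted p = 0.0706), ZNF708 at -0.81 (adjusted p = 0.0664) and ZNF493 at -0.60 (adjusted p = 0.0501), all by limma. In ZNF431 the control replicates themselves lay 0.56 apart, at 9.65 and 9.09. The smallest differences were those of ZNF101 (-0.12), ZNF729 (-0.20), ZNF14 (-0.22) and ZNF429 (-0.23). Promoters of the 7 called genes that have one were 72.7% to 84.3% identical to each other. Likeness and size of difference did not go together throughout: median identity to the rest of the run was 56% for ZNF101 and 54.7% for ZNF14, but 78% for ZNF254 (-0.38) and 67.7% for ZNF708 (-0.81). ZNF729, ZNF429 and ZNF737 had signals of 4.69 to 5.42, close to the filter line, where a difference can be understated. These comparisons within the run were picked after the values were seen.

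**Figure D3:**
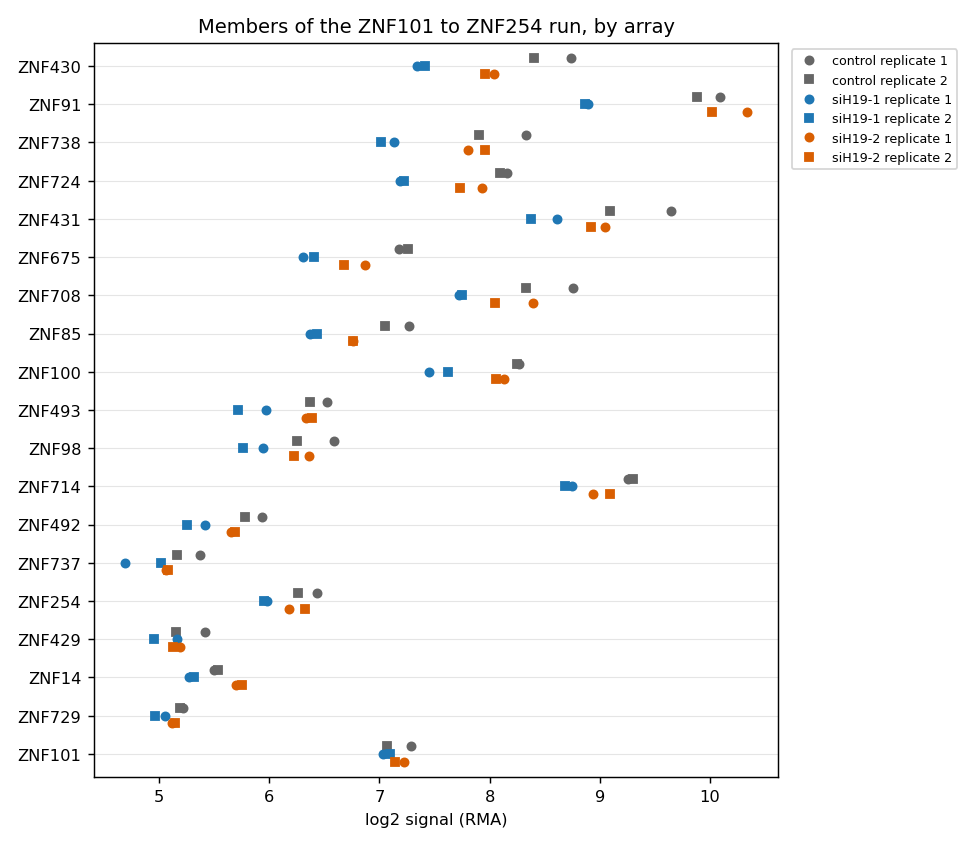
Log2 signal on each of the 6 arrays for the measured genes of the ZNF101 to ZNF254 run, by siRNA group. Genes are ordered by their log2 fold change with siH19-1 against control, not by position. The siH19-1 points lie under the control mean in all 19 genes, and the siH19-2 mean is under the control mean in 16 of them.

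The other 2 falls with siH19-1 were of ZNF146 and ZNF562. ZNF562 read 10.70 and 10.57 in control, 10.10 and 10.02 with siH19-1, and 10.21 and 10.19 with siH19-2. Both siRNA groups were under the control arrays. It fell by 0.58 with siH19-1 (adjusted p = 0.0413) and by 0.44 with siH19-2 (adjusted p = 0.0421, limma).

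With siH19-2 against the control siRNA, 19 of the 134 genes rose and 6 fell, which together are 18.7% of them, where 21% of all tested clusters were called (10.2% higher, 10.8% lower). The share called was thus no greater than the background, and rises outnumbered falls among the zinc finger genes. At an unadjusted p under 0.05 (limma), 37 were higher and 9 lower, where 4536 of all 24721 tested clusters were higher and 4275 lower. The median log2 fold change was 0.13, against 0.05 over all tested clusters, and 84 genes had positive, 49 negative and 1 zero differences. Positive differences made up 62.7% of the genes, against 55.3% of all tested clusters. When arrays were scaled to the 8 rows of spike-in probes, all tested clusters shifted to a median of -0.29 and the family's median turned to -0.22, with 5 rises and 32 falls, while the family stayed 0.07 above all clusters. Whenever 1 array was left out, fewer genes of the family were called, and fewer of all tested clusters as well. The family's median then ran from 0.055 to 0.19.

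ZFP36, the CCCH gene, showed the widest rise. It read 9.05 and 8.28 in control, 9.74 and 9.03 with siH19-1, and 11.27 and 11.11 with siH19-2. The siH19-2 arrays lay above all others, while control and siH19-1 overlapped. The level was 5.76-fold higher with siH19-2 than in control (log2 fold change 2.53, SE 0.33, adjusted p = 0.00691, limma). The rise passed under 5 of the 6 omissions of an array, the exception being siH19-2 replicate 1 (2.45, adjusted p = 0.0537). Without ZFP36 the family's median with siH19-2 against control was 0.125, and 18 genes were called higher.

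Among the C2H2 genes, ZNF460 rose most with siH19-2. It read 8.82 and 8.62 in control, 9.33 and 9.27 with siH19-1, and 9.89 and 10.26 with siH19-2. The 3 groups did not overlap and stood in the order control, siH19-1, siH19-2. The change was 1.36 with siH19-2 (SE 0.16, adjusted p = 0.00543, limma) and 0.58 with siH19-1, which did not pass (adjusted p = 0.102). The rise with siH19-2 passed whichever array was left out, at 1.17 to 1.54, as did that of ZNF780B, at 0.80 to 1.12.

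ZNF780A and ZNF780B, neighbouring duplicates, both rose with siH19-2. ZNF780B read 7.72 and 7.68 in control, 7.69 and 7.60 with siH19-1, and 8.82 and 8.50 with siH19-2 (log2 fold change 0.96, adjusted p = 0.00854, limma). ZNF780A read 7.17 and 6.92, then 7.29 and 7.11, then 7.93 and 7.72 (0.78, adjusted p = 0.0171). In both, the siH19-2 arrays stood above overlapping control and siH19-1 arrays. Whether their probes read shared sequence was not tested.

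ZNF121 read 11.50 and 11.21 in control, 11.22 and 10.84 with siH19-1, and 12.36 and 12.26 with siH19-2, a rise of 0.96 (adjusted p = 0.0178, limma). ZNF805 read 7.53 and 7.38, then 7.70 and 7.57, then 8.06 and 8.31, a rise of 0.73 (adjusted p = 0.0165). ZNF564 read 5.53 and 5.59, then 5.56 and 5.63, then 6.28 and 6.14, a rise of 0.65 (adjusted p = 0.0110). In these 3 genes the siH19-2 arrays lay above all others. ZNF266 read 6.16 and 5.97 in control, 5.57 and 5.61 with siH19-1, and 6.70 and 6.68 with siH19-2, a rise of 0.63 (adjusted p = 0.0134). Its 3 groups did not overlap, with siH19-1 lowest at -0.48 against control, which did not pass (adjusted p = 0.0582).

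The 6 falls with siH19-2 were each under 1.5-fold. ZNF430 fell by 0.57 (adjusted p = 0.0392), ZNF675 by 0.45 (adjusted p = 0.0401) and ZNF562 by 0.44 (adjusted p = 0.0421, limma). These 3 had also fallen with siH19-1, in a comparison that shares the control arrays. With siH19-2 the falls of ZNF430, ZNF675 and ZNF562 passed in 9, 7 and 8 of 12 other settings. With siH19-1 they passed in 12, 12 and 8. None of these settings leaves out an array, so the counts do not show how a call fares with fewer arrays. Leaving out 1 array gave siH19-2 differences of -0.74 to -0.40, -0.54 to -0.35 and -0.50 to -0.37, in the same order. With siH19-1 the ranges were -1.365 to -1.025, -0.91 to -0.81 and -0.64 to -0.51. ZNF766 read 8.59 and 8.48 in control, 8.12 and 8.13 with siH19-1, and 8.03 and 7.98 with siH19-2, a fall of 0.53 (adjusted p = 0.0188). ZNF57 read 6.74 and 6.87, then 6.52 and 6.35, then 6.17 and 6.40, a fall of 0.52 (adjusted p = 0.0385). ZNF584 read 7.30 and 7.29, then 6.87 and 6.87, then 6.97 and 6.94, a fall of 0.34 (adjusted p = 0.0457). In each of these genes both siRNA groups lay under the control arrays. The falls of ZNF766, ZNF57 and ZNF584 with siH19-2 passed in 10, 8 and 7 of the same 12 settings.

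**Figure D4:**
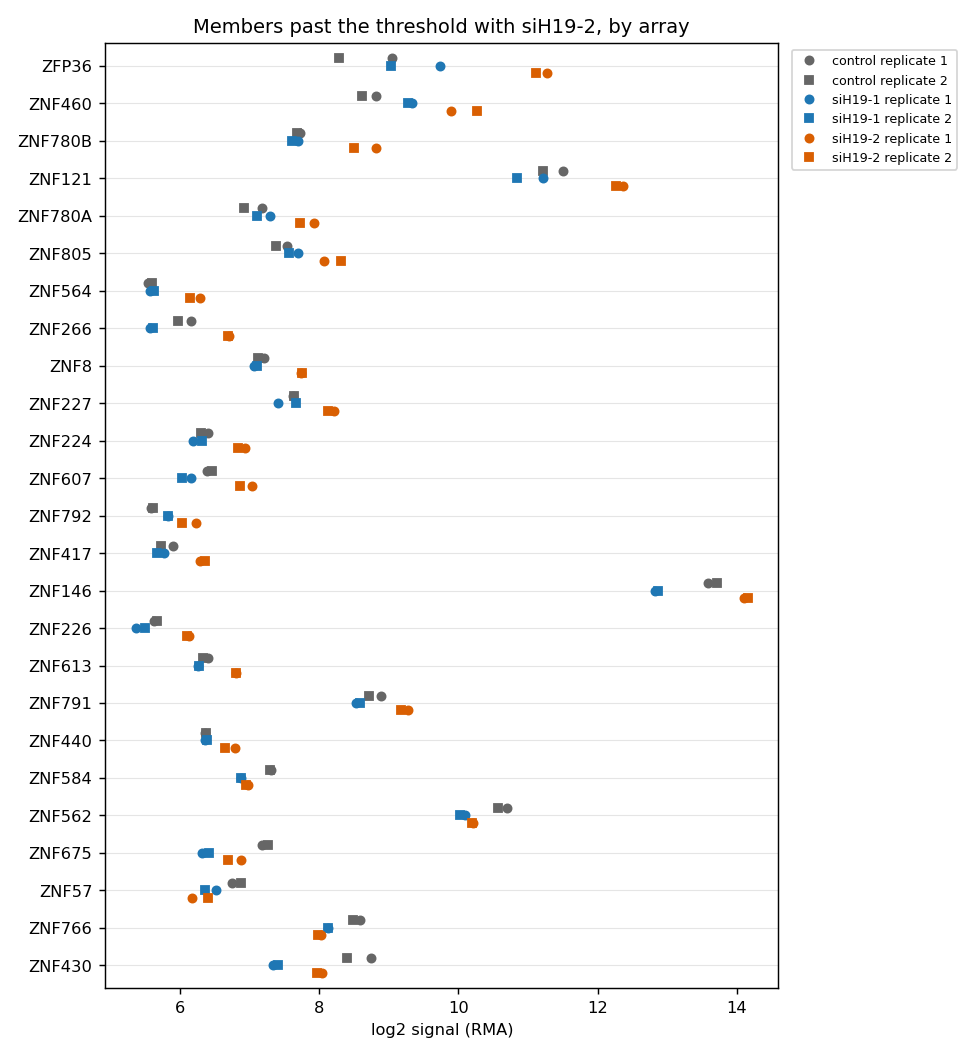
Log2 signal on each of the 6 arrays for the 25 zinc finger genes called with siH19-2 against control (19 rises and 6 falls), by siRNA group. ZFP36 reaches 11.27 and 11.11 with siH19-2 against 9.05 and 8.28 in control.

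The siRNAs were then compared with each other, which uses no control array but shares its arrays with the earlier comparisons. With siH19-2 against siH19-1, 44 of the 134 genes were higher and none was lower (32.8%), where 18.2% of all tested clusters were called (9.76% higher, 8.42% lower). At an unadjusted p under 0.05 (limma), 66 genes were higher and 0 lower, where 4746 of all 24721 tested clusters were higher and 3584 lower. The median log2 fold change was 0.30, against 0.06 over all tested clusters, and 120 genes had positive and 14 negative differences. Positive differences made up 89.6% of the genes, against 57.5% of all tested clusters. Both siH19-2 arrays lay above both siH19-1 arrays for 98 genes and below them for 4, where 36.7% and 27% of all tested clusters did so. Of the 44, 26 differed by at least 1.5-fold and 6 by at least 2-fold. Under the spike-in scaling the family's median was 0.13 where that of all clusters was -0.10, and 19 genes were called. With any 1 siH19-1 or siH19-2 array left out, far fewer genes of the family were called, and far fewer of all tested clusters as well. Over the omissions of 1 array the family's median ran from 0.27 to 0.32.

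The 6 genes past 2-fold were ZFP36 (3.49-fold), ZNF91 (2.46-fold), ZNF146 (2.45-fold), ZNF121 (2.43-fold), ZNF266 (2.14-fold) and ZNF780B (2.02-fold), each higher with siH19-2, with adjusted p from 0.00416 for ZNF146 to 0.0187 for ZFP36 (limma). ZNF607 followed, with 6.38 and 6.45 in control, 6.16 and 6.03 with siH19-1, and 7.03 and 6.86 with siH19-2 (log2 fold change 0.85 between the siRNAs, adjusted p = 0.00827). Its groups did not overlap, and control lay between the siRNAs. In the ZNF101 to ZNF254 run all 19 genes were higher with siH19-2 than with siH19-1 (median 0.43, 7 called). Against control the run was not raised by siH19-2: 16 of its 19 genes had negative differences, 2 positive and 1 zero (median -0.19, 2 falls). Without control replicate 1 the run's median was -0.09 with 0 falls, 5 of 19 differences being positive, and spike-in scaling gave -0.50 with 14 falls of the 20 genes then measured. The other 6 neighbourhoods with at least 8 measured genes had medians of 0.05 to 0.33 with siH19-2 against control, which became -0.34 to 0 under spike-in scaling. The ZNF317 to ZNF846 median also turned to -0.02 under median centring and without control replicate 2. It was -0.01 without siH19-2 replicate 2 and with no filter. The ZNF565 to ZNF573 median turned to -0.01 under median centring.

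ZNF146, also called OZF and built of zinc fingers without a KRAB domain, was the 1 gene that passed in opposite directions against control. It read 13.59 and 13.71 in control, 12.82 and 12.87 with siH19-1, and 14.11 and 14.16 with siH19-2. The 3 groups were well apart, with replicates within 0.12 of each other. It fell by 0.81 with siH19-1 (adjusted p = 0.0184) and rose by 0.49 with siH19-2 (adjusted p = 0.0303), a difference of 1.29 between the siRNAs (SE 0.11, adjusted p = 0.00416, limma). The difference between the siRNAs passed whichever array was left out, at 1.27 to 1.32, as did that of ZNF266, at 1.08 to 1.12. Against control, the fall of ZNF146 passed under none of the 6 omissions (-0.87 to -0.75, adjusted p from 0.0511 to 0.134, limma), and its rise passed under 1 of them (0.43 to 0.55).

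Of members with a role known from other work, ZNF350 (ZBRK1), a repressor of GADD45A that acts with BRCA1, read 5.06 and 5.12 in control, 4.75 and 4.63 with siH19-1, and 5.44 and 5.50 with siH19-2. Its groups did not overlap, but these signals are near the filter line. It differed between the siRNAs by 0.78 (adjusted p = 0.00859, limma) and passed against control with neither (-0.40 with siH19-1, adjusted p = 0.0857, and 0.38 with siH19-2, adjusted p = 0.0503). ZNF224, a KRAB repressor of aldolase A, read 6.40 and 6.30, then 6.19 and 6.32, then 6.93 and 6.83, and rose by 0.53 with siH19-2 (adjusted p = 0.0208). Only its siH19-2 arrays stood apart. ZNF473 (ZFP100), which takes part in the 3′ processing of histone messages, read 6.30 and 6.19, then 6.15 and 6.20, then 5.93 and 6.27. Its groups overlapped, with -0.07 for siH19-1 (adjusted p = 0.837) and -0.15 for siH19-2 (adjusted p = 0.508). ZNF274, ZNF93, ZNF331, ZNF382 and ZFP82 did not reach the filter line.

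The machinery that KRAB zinc finger proteins work through was measured with 33 of 34 listed cofactors, CBX5 not being measured. With siH19-1, 0 of the 33 rose and 3 fell, namely MTA2, HDAC2 and EHMT1. With siH19-2, CHD3 rose (0.43, adjusted p = 0.0341, limma), a call that was lost in 5 of 12 other settings (lowest 0.11) and under each of the 6 omissions of an array. Another 6 fell, namely TASOR, HDAC2, DNMT3B, GATAD2A, TRIM24 and UHRF1. These are 9.09% and 21.2% of the list, near the background shares of 6.22% and 21%. At the level of medians the list was at -0.13 with siH19-1 and -0.04 with siH19-2.

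TRIM28, the common corepressor, read 13.48 and 13.12 in control, 13.52 and 13.81 with siH19-1, and 12.36 and 12.77 with siH19-2. The siH19-2 arrays lay under all others. The difference passed between the siRNAs (-1.10, adjusted p = 0.0209) and not against control (0.37 with siH19-1, adjusted p = 0.379, and -0.74 with siH19-2, adjusted p = 0.0584, limma). SETDB1 read 7.57 and 7.28, then 6.96 and 6.91, then 7.42 and 7.40, and did not pass in any comparison (-0.49 with siH19-1, adjusted p = 0.0837, and 0.48 between the siRNAs, adjusted p = 0.0509). It passed in 3 and 5 of 12 other settings in these comparisons. Its siH19-1 arrays were the lowest. MTA2, a subunit of the NuRD deacetylase complex, read 10.23 and 10.07, then 8.58 and 8.62, then 10.22 and 10.01. It fell by 1.55 with siH19-1 (adjusted p = 0.00860) and had the siH19-1 arrays alone apart from the rest. HDAC2, a deacetylase of the same complex, fell by 0.61 with siH19-1 (adjusted p = 0.0381) and by 0.98 with siH19-2 (adjusted p = 0.00511, limma). The call passed in 9 of 12 other settings with siH19-1 and in all 12 with siH19-2. None of those settings leaves out an array. Doing so gave -0.70 to -0.51 with siH19-1 and -1.02 to -0.94 with siH19-2. HDAC1, also on the list, did not pass (-0.025 with siH19-1 and 0.08 with siH19-2). EHMT1, a histone methyltransferase, fell by 0.54 with siH19-1 (adjusted p = 0.0453, limma), a call that passed in 8 of 12 other settings. Its difference was -0.62 to -0.45 when 1 array was left out.

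Further falls with siH19-2 were of TASOR, a subunit of the HUSH silencing complex (-1.08, adjusted p = 0.0227), and of the DNA methyltransferase DNMT3B (-0.76, adjusted p = 0.0139, limma). GATAD2A, of NuRD, was at -0.76 (adjusted p = 0.0210), the TRIM28 relative TRIM24 at -0.72 (adjusted p = 0.0210) and UHRF1, which guides maintenance methylation of DNA, at -0.71 (adjusted p = 0.0171). TASOR read 9.52 and 8.86 in control, 8.18 and 8.22 with siH19-1, and 8.13 and 8.09 with siH19-2. Both siRNA groups thus lay under control arrays that were themselves spread. TASOR was at -0.99 with siH19-1, which did not pass (adjusted p = 0.0587, limma), and at -0.09 between the siRNAs. Between the siRNAs, 3 cofactors were higher with siH19-2 and 3 lower (18.2% of the list, where 18.2% of all clusters were called). Those higher were MTA2 (1.52, adjusted p = 0.00414), ATF7IP, the partner of SETDB1 (0.83, adjusted p = 0.0159), and RBBP4, a histone chaperone (0.63, adjusted p = 0.0140). Those lower were TRIM28, UHRF1 (-0.86, adjusted p = 0.0115) and MORC3 (-0.61, adjusted p = 0.0336).

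Zinc finger genes on other chromosomes and other genes on chromosome 19 were set beside the family as descriptions, without a test of the difference. With siH19-1, the 190 ZNF and ZFP genes elsewhere had a median of -0.14 (2 rises, 15 falls), close to the -0.15 of the chromosome 19 family, and the 570 other chromosome 19 genes had -0.04 (18 rises, 24 falls). With siH19-2 against control the medians were -0.03 for zinc finger genes elsewhere (15 rises, 15 falls) and -0.09 for other chromosome 19 genes (36 rises, 92 falls), against 0.13 for the family. Between the siRNAs the medians were 0.13 (34 higher, 6 lower) and -0.07 (34 higher, 73 lower), against 0.30. Of the 134 genes, 81 passed in no comparison. The 2 antisense RNAs and the 2 pseudogenes were among them.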

How the data were processed

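Each of 6 whole-transcript arrays measured 1 RNA sample from HCT116 cells (3 groups, 2 arrays each). The deposited values are log2 signals made by the authors with RMA in Affymetrix Expression Console, per the submitters' processing notes. Their versions, the probe sequences and the genome build of the annotation are not given in the sources used here. Arrays have no read depth, and their number limits precision. The groups come from the labels, which give no batch, and p-values measure the spread between 2 arrays a group.

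From these values, control rows (2995) were left out. Clusters with log2 of at least 5 on 2 arrays were kept (24721 of 67528) and fitted over all 3 groups with limma 3.58.1 in R 4.3.3 (lmFit, eBayes with trend, 3 residual and 2.75 prior degrees of freedom). Benjamini-Hochberg adjustment ran over all tested clusters within each comparison, with 0.05 as threshold. For each gene the row of highest mean was kept, and all 134 genes had 1 row. Symbols came from the array annotation, and 254 of 255 matched as current. Gene order came from the start positions in the RefSeq gene table. Promoters were aligned globally with Biopython 1.88, and figures drawn with matplotlib 3.10.9.

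Genes were named by rule: up to 8 of the largest rises and falls per comparison with no overlap of arrays, genes called in the same direction with both siRNAs, members of known role, and called cofactors with TRIM28 and SETDB1. The members and lists were chosen with earlier results of these data known. Alternatives covered the filter, the scaling, the model, the block and leaving out each array.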

Additional observations from a re-analysis of the deposited data

Results flagged for a closer look

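The siRNAs are directed at the same RNA, and for 17 of the 24 named zinc finger genes their effects differed by a test of the difference itself (siH19-2 against siH19-1, limma, adjusted p under 0.05), where 18.2% of all tested clusters did. Of these genes, 8 were named for the size of that difference. The others, except ZNF350 and ZNF224, were named for a called change against control, which shares siRNA arrays with it. The count therefore restates the choice and cannot be read against the share of all clusters. ZFP36 differed by 1.805, ZNF91 by 1.3, ZNF146 by 1.29, ZNF121 by 1.28, ZNF266 by 1.1 and ZNF780B by 1.015 on the log2 scale, each higher with siH19-2. ZNF607 differed by 0.85, ZNF738 by 0.81, ZNF350 by 0.78, ZNF460 by 0.775, and ZNF430, ZNF724, ZNF780A and ZNF224 by 0.625 each. ZNF564 differed by 0.615, ZNF100 by 0.56 and ZNF805 by 0.55. The H19 row lies at the filter line in every group, so these differences cannot be set against the degree of knockdown.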

How the results depend on the processing

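Each group has 2 arrays, so single calls move with the arrays and settings used. Counts of called genes are given in the order siH19-1 against control, siH19-2 against control and siH19-2 against siH19-1. They were 10, 25 and 44. Leaving out 1 array gave 0 to 7, 2 to 14 and 2 to 40, with medians of -0.21 to -0.12, 0.055 to 0.19 and 0.27 to 0.32, so no median changed sign. With no filter, over all 255 genes, the counts were 6, 11 and 19 and the medians -0.08, 0.065 and 0.155. A filter at log2 6 gave a median of 0.40 between the siRNAs, and quantile normalization 0.24. Median centring gave 0.06 for siH19-2 against control and 27 calls between the siRNAs. Scaling to the control probes gave 18 calls with siH19-1 and medians of -0.22, 0.20 and 0.44. Fitting only the 2 groups compared gave 4 and 14 calls against control. Scalings to AFFX rows were chosen after seeing the data: background probes gave counts of 5, 6 and 12, and spike-in probes gave 34, 37 and 19, with medians of -0.33, -0.22 (reversed) and 0.13. The cause of these moves was not tested. Over all clusters, higher against lower calls were 656 to 881, 2527 to 2676 and 2414 to 2081. They became 628 to 1469, 3241 to 2116 and 4408 to 1511 with control probes, and 500 to 2348, 1104 to 7505 and 1555 to 3164 with spike-in probes. These scalings moved the median of all clusters by up to 0.33, while the family's median relative to it stayed at -0.13 to -0.14, 0.07 to 0.08 and 0.22 to 0.24.

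Same-numbered arrays deviated together weakly (correlations of 0.29, 0.20 and 0.20), and the labels do not say that a number marks a shared batch. With the replicate number as a block, 16 genes were called with siH19-1, 30 with siH19-2 and 45 between the siRNAs, and falls with siH19-1 in the ZNF101 to ZNF254 run went from 8 to 12. Single genes that changed sign had small differences. SETDB1 with siH19-2 against control went from -0.02 to 0.065 (control probes), and to 0.13 and -0.16 without control replicate 1 and replicate 2. ZNF473 between the siRNAs went to 0.075 (control probes) and ranged from -0.245 to 0.095 when 1 array was left out, and with siH19-2 against control from -0.315 to 0.025. ZNF91 with siH19-2 against control went to -0.13 (spike-in probes). A restriction to genes with C2H2 motifs in the protein was not run, and averaging over rows of a gene changes nothing, as each gene has 1.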
